A study of Mus musculus with 8 samples.

Results

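Epithelial cells keep their identity through a small set of transcription factors and RNA-binding proteins. Grainyhead-like factors (Grhl1, Grhl2) activate genes of epithelial junctions, Ovo-like zinc finger repressors (Ovol1, Ovol2) hold mesenchymal regulators such as Zeb1 down, and the epithelium-specific ETS factors Elf3 and Ehf drive genes of differentiated epithelia. The epithelial splicing regulatory proteins Esrp1 and Esrp2 select the epithelial exons of receptors and junction proteins, and Rbm47 is an RNA-binding protein of epithelia that acts on splicing and on messenger stability. TGFbeta is known to push NMuMG cells, a line of mouse mammary gland epithelium, towards a mesenchymal state, and Snail and Zeb repressors are known to act against the epithelial set in that process.

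The 9 genes described here were chosen by name as such regulators: Esrp1, Esrp2, Rbm47, Elf3, Ehf, Grhl1, Grhl2, Ovol1 and Ovol2. Earlier results of these data were known when they were chosen. All 9 were measured, each by 1 probeset with a single gene symbol, among 19937 genes and 34760 probesets on the array. Total RNA had been hybridised from NMuMG cells stably transfected with a vector holding major satellite, the repeat of mouse pericentromeric heterochromatin, or with a control vector. The groups were Major with 8 h of TGFbeta, Major untreated (0 h), Control with 8 h of TGFbeta and Control untreated, with 2 arrays each and 8 in all. The labels give neither the number of clones behind a transfected line nor the dose of TGFbeta. The values are log2 expression summarised per probeset by robust multi-array average (RMA), and levels of different probesets cannot be set against each other.

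A code in the array titles is shared by 1 array of every group, and arrays carry replicate number 1 or 2 by that code. Because arrays were paired by this code, the number was kept in the model as a block. Array medians were 7.72 to 7.76 for number 1 and 7.88 to 7.92 for number 2. The NMuMG label was checked against markers. Krt8 (14.19 to 14.42 over the 8 arrays), Krt18 (13.50 to 13.95) and Cdh1 (12.72 to 13.16) had high values for a table that runs from 2.98 to 14.75 with a median probeset mean of 7.80, whereas the epithelial adhesion gene Epcam (6.53 to 7.16) and the claudin gene Cldn7 (6.70 to 7.03) had values below that median. Of the immune and endothelial markers, 9 of 10 were measured, and their levels ran from 5.31 to 7.83.

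After 8 h of TGFbeta, 3 of the 9 regulators fell when both vectors were averaged (Rbm47, Ehf and Esrp2), 0 rose and 6 did not pass. Over all 19937 genes, 24.3% passed in this comparison, 11.2% as higher and 13.1% as lower. Rbm47 was reduced to 35.7% of its untreated level, Ehf to 70.9% and Esrp2 to 83.0%. The calls of Ehf and Esrp2 were lost when the replicate number was left out of the model. The median change of the 9 genes was -0.02, against 0.025 over all genes. In these bulk samples, fewer cells of a type and less RNA per cell cannot be told apart. A gene passed at a Benjamini-Hochberg adjusted p under 0.05 over all genes in limma, and changes are log2 differences ± standard error (SE).

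**Figure D1:**
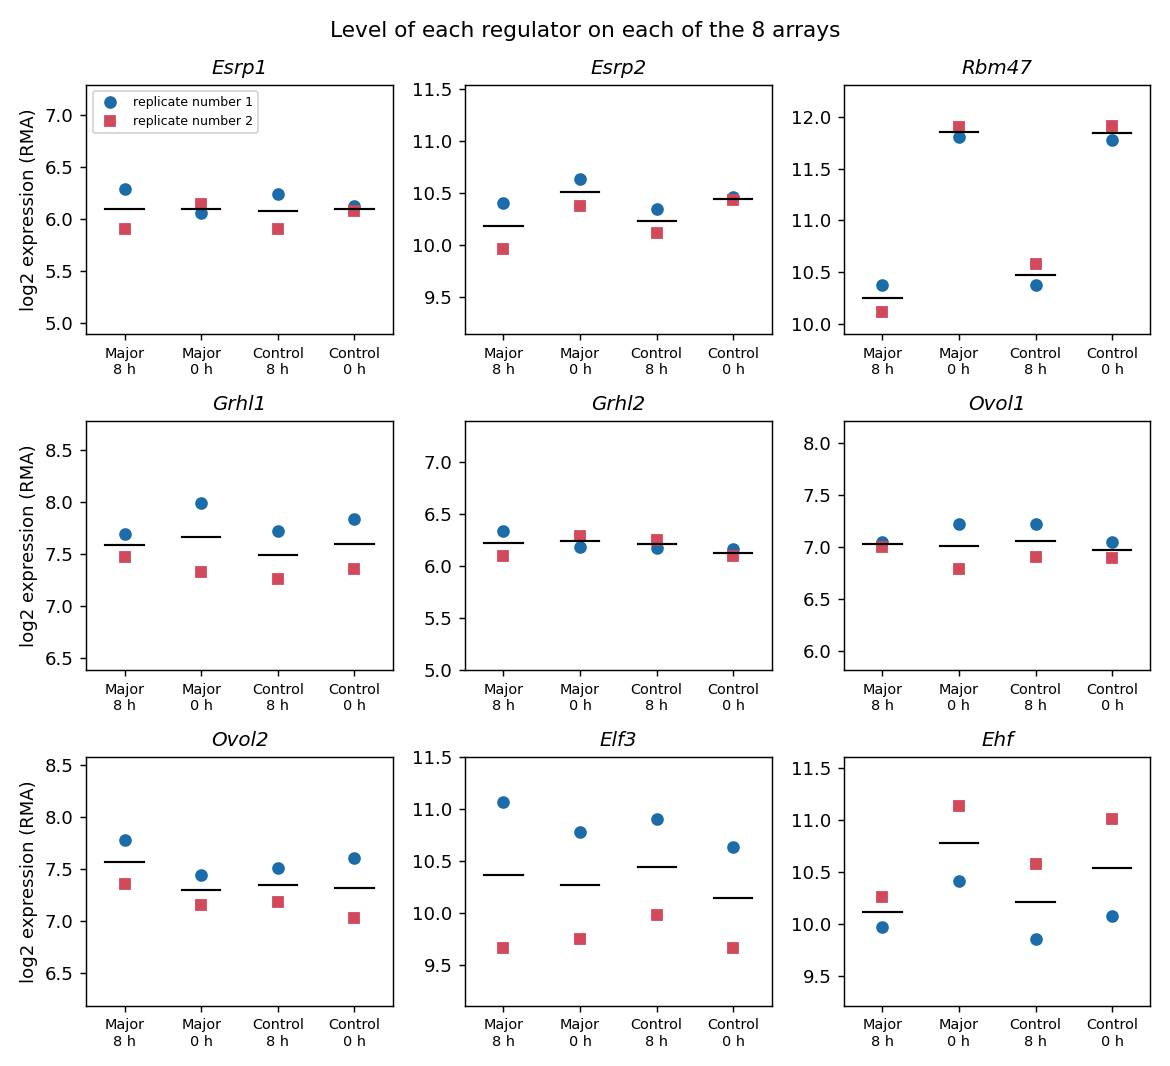
Level of each of the 9 regulators on each array (log2 expression, RMA), with a panel per gene spanning the same number of log2 units, circles for replicate number 1, squares for number 2 and bars for group means. The 4 TGFbeta arrays of Rbm47 (10.12 to 10.58) lie below all 4 untreated arrays (11.77 to 11.91), and within every group number 2 lies below number 1 for Elf3 and above it for Ehf.

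Among the RNA-binding proteins, Rbm47 had levels of 10.38 and 10.12 in Major cells with TGFbeta, against 11.80 and 11.90 in untreated Major cells (numbers 1 and 2). In Control cells it stood at 10.38 and 10.58 with TGFbeta, against 11.77 and 11.91 without. No treated array overlapped any untreated one, whichever vector the cells carried. Rbm47 fell by 1.60 ± 0.12 in Major cells (adjusted p = 5.29e-05, limma) and changed by -1.37 ± 0.12 in Control cells (adjusted p = 0.000113, limma). Averaged over both, the change was -1.48 ± 0.08 (adjusted p = 3.83e-06, limma), which left 35.7% of the untreated level, and 57 of the 19937 genes had a more negative average change. It was -1.41 within number 1 and -1.56 within number 2. Without the replicate number in the model Rbm47 also passed (adjusted p = 0.0016), as it did after leaving out each of the 8 arrays (-1.59 to -1.38).

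RefSeq lists 3 start sites for Rbm47 on the minus strand of chromosome 5 (GRCm38.p6). The most upstream window, 250 bases before to 50 bases after the start, is shown because Rbm47 is the regulator with the largest change.

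Rbm47 promoter, chr5:66151905-66152204, minus strand: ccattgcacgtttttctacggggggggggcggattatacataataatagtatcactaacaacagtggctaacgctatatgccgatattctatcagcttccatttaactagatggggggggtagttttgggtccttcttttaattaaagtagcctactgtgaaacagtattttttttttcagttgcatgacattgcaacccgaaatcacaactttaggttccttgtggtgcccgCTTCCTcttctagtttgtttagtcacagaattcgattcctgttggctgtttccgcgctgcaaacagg

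The capitals mark the motif AGGAAG, a form of the ETS core, here on the opposite strand with its first base at position -17 from the start. The other Rbm47 windows do not hold this motif, and a window of Grhl1, which had no call, holds it at position -201. The E-box CACCTG, the letters read by Snail and Zeb repressors, was searched on both strands and is not in the 3 Rbm47 windows. It is in 20.2% of all 32851 promoter windows of this length, and AGGAAG in 35.4%. The letters AACCNGTT, read by Grainyhead-like factors, are in 2.09% of all windows and CCGTTA, read by Ovo-like factors, in 2.76%. Neither is in the 7 windows that the table of RefSeq promoters used here holds for 4 of the 9 regulators (Rbm47, Elf3, Grhl1 and Ovol2), and no match overlapped another. A match is a string of letters and not a bound site.

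Esrp2, a splicing factor that favours epithelial exons, had levels of 10.41 and 9.97 in Major cells with TGFbeta, against 10.64 and 10.38 without. In Control cells its levels were 10.34 and 10.11 with TGFbeta, against 10.46 and 10.43 without. Esrp2 was lower with TGFbeta in 4 of 4 pairs of arrays with the same vector and number (-0.41 to -0.12), although the treated array of number 1 in Major cells lay above the untreated one of number 2. The average change was -0.27 ± 0.07 (adjusted p = 0.0281, limma), or 83.0% of the untreated level, and -0.17 and -0.36 within numbers 1 and 2. Neither vector passed alone (Major -0.32 ± 0.11, adjusted p = 0.0758, and Control -0.22 ± 0.11, adjusted p = 0.248, both limma). With 1 array left out, the Major change ran from -0.45 without number 1 of treated Major cells, where it passed (adjusted p = 0.0386), to -0.19 without number 2 of that group (adjusted p = 0.413). The Control change ran from -0.36 without number 1 of untreated Control cells to -0.07 without number 2 of that group, and passed in neither (adjusted p = 0.112 and 0.861). The average call was lost without the replicate number (adjusted p = 0.445). It was also lost in 6 of the 8 fits that left out an array, all but those without number 1 of untreated Control cells or number 1 of treated Major cells, with changes of -0.34 to -0.20 and adjusted p of 0.0138 to 0.131 over the 8.

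Esrp1, the close relative of Esrp2, had 6.28 and 5.90 in Major cells with TGFbeta, against 6.06 and 6.14 without. Control cells had 6.24 and 5.90 with TGFbeta, against 6.12 and 6.07 without. Treated and untreated arrays overlapped in both vectors, and treated arrays were higher in number 1 and lower in number 2. The average change of Esrp1 was -0.02 ± 0.09, with a 95% interval of -0.21 to 0.18 (adjusted p = 0.922, limma). Esrp1 and Grhl2 were the 2 regulators whose mean level lay under 6.78, the 25th percentile of the genes tested. The table holds no detection call, so whether these probesets rose above background is not known. The same holds for Ovol1, Ovol2 and Grhl1, whose mean levels (7.02, 7.38 and 7.58) lay below the median probeset mean of 7.80.

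Of the ETS factors, Ehf had levels of 9.97 and 10.26 in Major cells with TGFbeta, against 10.42 and 11.13 without. In Control cells it had 9.85 and 10.57 with TGFbeta, against 10.07 and 11.01 without. Ehf was lower with TGFbeta in 4 of 4 pairs (-0.87 to -0.22), but the groups overlapped in Control cells because number 2 lay higher than number 1 in every group (0.29 to 0.94). The average change was -0.50 ± 0.10 (adjusted p = 0.0047, limma), or 70.9% of the untreated level, and -0.34 and -0.65 within numbers 1 and 2. Ehf fell in Major cells (-0.66 ± 0.14, adjusted p = 0.0109, limma), and the change of -0.33 ± 0.14 in Control cells did not pass (adjusted p = 0.164, limma). The difference between these responses, -0.33 ± 0.19, did not pass either (adjusted p = 0.999, limma). Without the replicate number the average change had an adjusted p of 0.563 and the Major change one of 0.799. The Major call was lost without number 1 of untreated Major cells (adjusted p = 0.0558), number 2 of untreated Major cells (0.0943) or number 2 of treated Major cells (0.0823). The Control change passed when either one of the treated Major arrays was left out (adjusted p = 0.0455 in both fits), while the average passed in all 8 fits that left out an array.

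Elf3, which acts in the differentiation of simple and stratified epithelia, had no call. Its levels were 11.06 and 9.66 in Major cells with TGFbeta, against 10.78 and 9.75 without, and 10.91 and 9.98 in Control cells with TGFbeta, against 10.63 and 9.66 without. Elf3 was lower in number 2 than in number 1 in every group (-1.40 to -0.93), the opposite order to Ehf and a wider gap than any TGFbeta difference of Elf3. With TGFbeta it was higher in 3 of 4 pairs, and the average difference of 0.20 ± 0.08 did not pass (adjusted p = 0.126, 95% interval 0.01 to 0.39, limma). Without number 2 of treated Major cells, the pair that went down, the difference was 0.30 and passed (adjusted p = 0.0142), and without number 1 of that group it was 0.09 and did not (adjusted p = 0.351). In Control cells the difference of 0.30 ± 0.12 did not pass with all arrays (adjusted p = 0.151, limma) and did when either one of the treated Major arrays was left out (0.0427 in both fits).

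The Elf3 window is shown because it is the 1 window of the 7 that holds the E-box, in capitals, with its first base at position -140 from the start.

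Elf3 promoter, chr1:135258423-135258722, minus strand: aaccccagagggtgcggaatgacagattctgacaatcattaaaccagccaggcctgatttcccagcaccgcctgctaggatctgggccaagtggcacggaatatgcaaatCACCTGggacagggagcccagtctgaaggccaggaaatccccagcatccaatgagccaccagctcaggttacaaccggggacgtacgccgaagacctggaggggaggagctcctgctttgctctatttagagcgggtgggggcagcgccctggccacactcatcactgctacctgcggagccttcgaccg

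Neither Grainyhead-like factor passed with TGFbeta, and whether their probesets rose above background is not known. Grhl1 had 7.70 and 7.48 in Major cells with TGFbeta, against 7.99 and 7.33 without, and 7.72 and 7.26 in Control cells with TGFbeta, against 7.84 and 7.36 without. Grhl1 was lower in number 2 than in number 1 in every group, and its average change was -0.09 ± 0.08 (adjusted p = 0.455, 95% interval -0.27 to 0.08, limma). Grhl2 had 6.34 and 6.10 in Major cells with TGFbeta, against 6.18 and 6.29 without. In Control cells Grhl2 had 6.17 and 6.25 with TGFbeta, against 6.16 and 6.09 without. All 8 values of Grhl2 lay between 6.09 and 6.34, and its average change was 0.03 ± 0.07 (adjusted p = 0.783, 95% interval -0.13 to 0.20, limma).

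The Ovo-like factors did not pass either, and whether their probesets rose above background is not known. Ovol1 had 7.05 and 6.998 in Major cells with TGFbeta, against 7.22 and 6.79 without, and 7.22 and 6.90 in Control cells with TGFbeta, against 7.05 and 6.89 without. Its average change was 0.05 ± 0.07 (adjusted p = 0.657, 95% interval -0.11 to 0.22, limma). Ovol2 had 7.77 and 7.35 in Major cells with TGFbeta, against 7.44 and 7.15 without. Control cells had 7.51 and 7.18 of Ovol2 with TGFbeta, against 7.60 and 7.03 without. Ovol2 was higher in 3 of 4 pairs, and the average difference of 0.15 ± 0.07 did not pass (adjusted p = 0.154, limma), nor did that in Major cells (0.27 ± 0.10, adjusted p = 0.0984, limma) or in Control cells (0.03 ± 0.10, adjusted p = 0.905, limma).

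**Figure D2:**
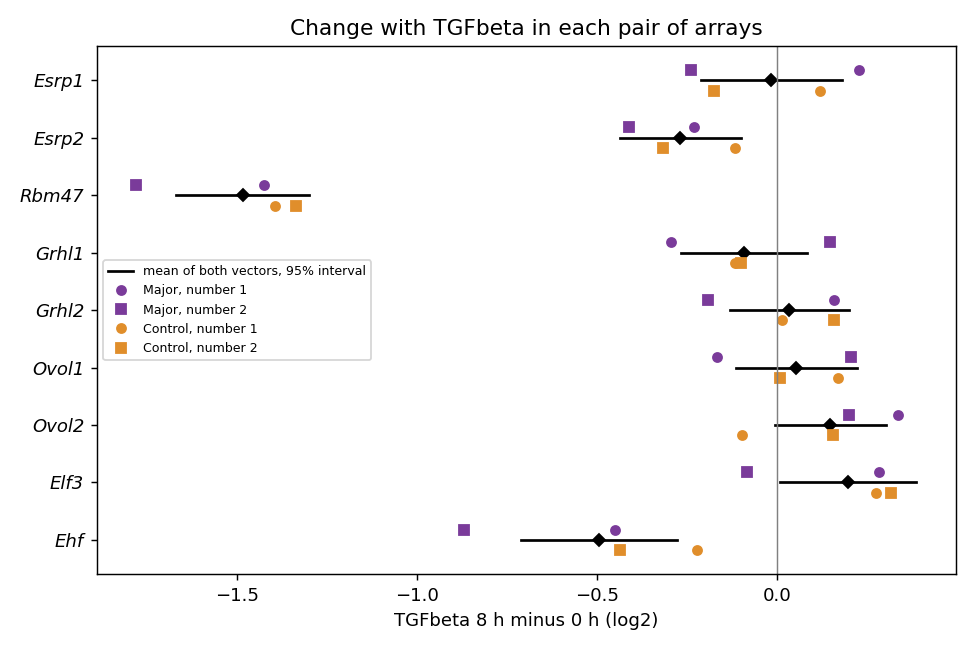
TGFbeta 8 h minus 0 h (log2) for each regulator, with 4 points for the pairs of arrays (purple for Major, orange for Control, circles for number 1, squares for number 2) and a diamond with its 95% interval for the average of both vectors. Rbm47, Ehf and Esrp2 lie below 0 in all 4 pairs, and the other 6 have pairs on both sides of 0.

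Counted by vector, 2 of the 9 regulators fell in Major cells (Rbm47 and Ehf), 0 rose and 7 did not pass, where 15.3% of all genes passed, 6.89% as higher and 8.38% as lower. In Control cells 1 fell (Rbm47), 0 rose and 8 did not pass, where 14.6% of all genes passed, 6.92% as higher and 7.63% as lower. The median change of the 9 was -0.02 in Major cells and -0.03 in Control cells, against 0.03 and 0.01 over all genes. Without the replicate number, Rbm47 was the 1 regulator that passed in each vector and in the average, where 1.09%, 1.07% and 4.83% of all genes passed.

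The set holds 4 pairs of related genes, and the TGFbeta changes of each pair were compared within the 4 pairs of arrays. The change of Ehf minus that of Elf3 was below 0 in 4 of 4 pairs of arrays (-0.79 to -0.50), with a mean of -0.69 ± 0.13 (SD, n = 4). An exact sign-flip permutation test gave p = 0.125, two-sided, which is the smallest value that 4 pairs allow (0.25 after Benjamini-Hochberg adjustment over the 4 comparisons). Esrp1 minus Esrp2 was above 0 in 4 of 4, with a mean of 0.25 ± 0.14 (SD, n = 4) and the same exact permutation p of 0.125 (0.25 adjusted). Grhl1 minus Grhl2 (-0.13 ± 0.34, exact permutation p = 0.5) and Ovol1 minus Ovol2 (-0.09 ± 0.32, exact permutation p = 0.75) had values on both sides of 0 (SD, n = 4 each). The pairs of arrays share vectors and replicate numbers, and the test treats all 4 as independent, which was not checked. With 4 pairs this test cannot reach 0.05, so it shows neither a difference nor a likeness within the pairs of genes. Whether the probesets of Esrp1, Grhl1, Grhl2, Ovol1 and Ovol2 rose above background is also not known.

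The second question was whether the major satellite vector altered the regulators. None of the 9 passed between Major and Control cells in limma, with TGFbeta, without it or averaged. At an unadjusted p under 0.05 there was 1 (Ovol2 with TGFbeta), 0 and 0, and without the replicate number the adjusted count was 0 in each. Over all genes, 0.0301%, 0.0301% and 0.0853% passed, all as lower in Major cells, and 0.00502%, 0.00502% and 0.01% passed without the replicate number. These were 6, 6 and 17 genes, and without number 1 of treated Major cells 107, 4 and 49 genes passed, with 0 of the 9 regulators among them. With the arrays centred on their medians 20 genes passed in the average, 10% of them as higher in Major cells. With TGFbeta, the differences ran from -0.23 ± 0.12 for Rbm47 (adjusted p = 0.76) to 0.22 ± 0.10 for Ovol2 (adjusted p = 0.752). Untreated, they ran from -0.02 ± 0.10 for Ovol2 to 0.23 ± 0.14 for Ehf (adjusted p = 1 for both when rounded).

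Averaged over both treatments, the 9 differences between vectors ran from -0.11 for Rbm47 to 0.10 for Ovol2. With the replicate number in the model, their 95% intervals together spanned -0.29 to 0.28. Each interval was taken singly, and they do not show that the vectors acted alike. The SE of this difference was 0.08 for Elf3 and 0.10 for Ehf with the replicate number, against 0.44 and 0.29 without it. The difference between the TGFbeta responses of Major and Control cells was largest for Ehf (-0.33 ± 0.19), Ovol2 (0.24 ± 0.14) and Rbm47 (-0.24 ± 0.16). None of the 9 passed (adjusted p = 0.999, 0 at an unadjusted p under 0.05, limma), and 0% of all genes did, although 17 genes passed without number 1 of treated Major cells. For Rbm47, the lower level in treated Major cells came from number 2, where Major minus Control was -0.46, while both vectors stood at 10.38 in number 1.

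**Figure D3:**
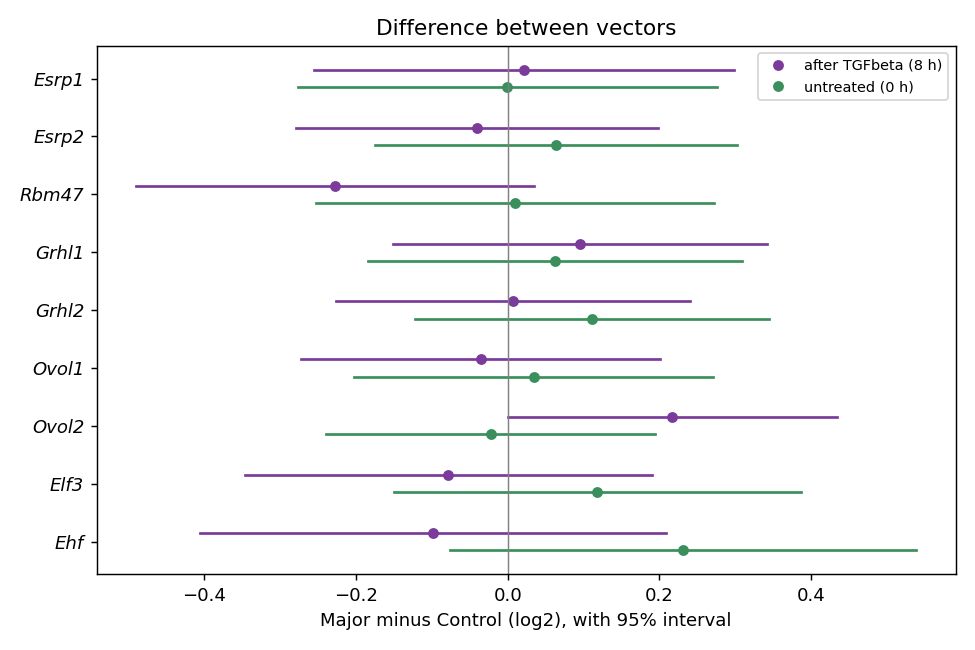
Major minus Control (log2) for each regulator after TGFbeta (purple) and untreated (green), with 95% intervals from limma. All 18 intervals but that of Ovol2 after TGFbeta, whose lower bound is at 0 to 2 decimals, include 0.

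Related genes were set beside the regulators through lists, and the counts below are for the average of both vectors, where 11.2% of all genes rose and 13.1% fell with a median of 0.025. Of 20 other epithelial transcription factors 18 were measured, of which 2 rose, 7 fell and 9 did not pass, with a median of -0.06. Foxa2 (-1.40 ± 0.07), Cebpa (-1.01 ± 0.06) and Klf5 (-0.83 ± 0.06) fell, and Sox9 rose by 0.93 ± 0.13 (adjusted p of 1.93e-06, 5.71e-06, 1.85e-05 and 0.000782, limma). Without the replicate number, 1 of these 18 rose and 3 fell, where 4.83% of all genes passed in either direction.

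Repressors of epithelial genes numbered 12, of which 5 rose, 2 fell and 5 did not pass, against 11.2% and 13.1% of all genes. Their median was 0.19, against 0.025 over all genes, and 2 rose and 1 fell without the replicate number. Snai1 rose by 1.62 ± 0.12 (adjusted p = 1.9e-05, limma), Zeb1 by 0.82 ± 0.07 (adjusted p = 4.06e-05) and Zeb2 by 0.67 ± 0.08 (adjusted p = 0.000274), whereas Twist2 fell by 0.97 ± 0.06 (adjusted p = 1.02e-05). Zeb2 did not pass without the replicate number (adjusted p = 0.181, limma), while Snai1, Zeb1 and Twist2 did. Zeb1 had 11.21 and 11.30 in Major cells with TGFbeta, against 10.55 and 10.43 without, and 11.29 and 11.51 in Control cells with TGFbeta, against 10.49 and 10.58 without. The groups of Zeb1 thus did not overlap, with the 4 treated arrays above the 4 untreated ones.

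Of 24 other splicing regulators 23 were measured, of which 1 rose, 6 fell and 16 did not pass, against 11.2% and 13.1% of all genes that rose and fell. The median was -0.09, against 0.025 over all genes, and 0 rose and 2 fell without the replicate number. Celf2, a CUG-binding regulator, fell by 0.93 ± 0.09 (adjusted p = 0.000107, limma), the Sam68 relative Khdrbs3 by 0.46 ± 0.07 and the RNA-binding protein gene Rbm38 by 0.41 ± 0.07. Qk, which encodes Quaking, a splicing factor known from mesenchymal cells, rose by 0.35 ± 0.06 (adjusted p = 0.0023, limma). Rbm38 (adjusted p = 0.608, limma) and Qk (0.384) did not pass without the replicate number, while Celf2 and Khdrbs3 did.

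All 16 genes known for exons that Esrp proteins select were measured, and 2 rose, 6 fell and 8 did not pass, where 11.2% of all genes rose and 13.1% fell. Their median was -0.11, against 0.025 over all genes, and 1 rose and 1 fell without the replicate number. Fgfr2, a fibroblast growth factor receptor with alternative epithelial and mesenchymal exons, fell by 1.96 ± 0.12 (adjusted p = 7.87e-06, limma). The hyaluronan receptor gene Cd44 rose by 0.45 ± 0.06, the p120 catenin gene Ctnnd1 by 0.41 ± 0.06, and Ralgps2 fell by 0.41 ± 0.06. Ctnnd1 (adjusted p = 0.0564, limma) and Ralgps2 (0.174) did not pass without the replicate number, while Fgfr2 and Cd44 did. The values are 1 summary per gene and hold no exon usage, so splicing of these genes was not measured here.

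Epithelial surface and junction genes had 29 of 30 measured, of which 7 rose, 6 fell and 16 did not pass, where 11.2% of all genes rose and 13.1% fell. Their median was 0.07, against 0.025 over all genes, and 2 rose and 2 fell without the replicate number. Cldn4, a claudin of tight junctions, rose by 2.25 ± 0.08 (adjusted p = 5.16e-07, limma), the keratin gene Krt7 by 0.82 ± 0.11 and the plakoglobin gene Jup by 0.62 ± 0.07, whereas the keratin gene Krt19 fell by 0.74 ± 0.06. Krt7 did not pass without the replicate number (adjusted p = 0.247, limma), while Cldn4, Jup and Krt19 did. Cdh1, which encodes E-cadherin, differed by -0.12 ± 0.06 and did not pass (adjusted p = 0.241, 95% interval -0.26 to 0.03, limma).

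The marker lists of 4 kinds of cell were read in the same comparison, where 11.2% of all genes rose and 13.1% fell. Among fibroblast markers 3 of 10 rose and 0 fell, among luminal epithelial markers 5 of 14 rose and 3 fell, among basal or myoepithelial markers 2 of 10 rose and 2 fell, and among immune or endothelial markers 1 of 9 rose and 0 fell. The summed log2 level of the fibroblast markers was 69.8 to 70.5 in treated and 67.3 to 69.0 in untreated Major cells, and 69.1 to 70.6 in treated and 66.8 to 69.5 in untreated Control cells. That of the luminal markers was 136.6 to 138.5 in treated and 134.3 to 135.4 in untreated Major cells, and 136.5 to 137.7 in treated and 133.1 to 136.4 in untreated Control cells. For these lists the treated arrays lay above the untreated ones within Major cells. In Control cells this held for the luminal list only, by 136.48 against 136.44 at the nearest arrays. Cldn4, a member of the luminal list, rose by 2.25 ± 0.08, so the luminal sums do not show a rise of these markers as a group. The sums of the basal markers (75.8 to 77.8 in treated and 75.7 to 77.4 in untreated Major cells, 74.9 to 78.0 in treated and 75.4 to 77.8 in untreated Control cells) overlapped in both vectors. So did those of the immune or endothelial markers (59.0 to 60.4 in treated and 57.8 to 59.1 in untreated Major cells, 58.5 to 59.8 in treated and 57.6 to 59.5 in untreated Control cells). The part of these markers in the changes of the regulators was not tested.

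**Figure D4:**
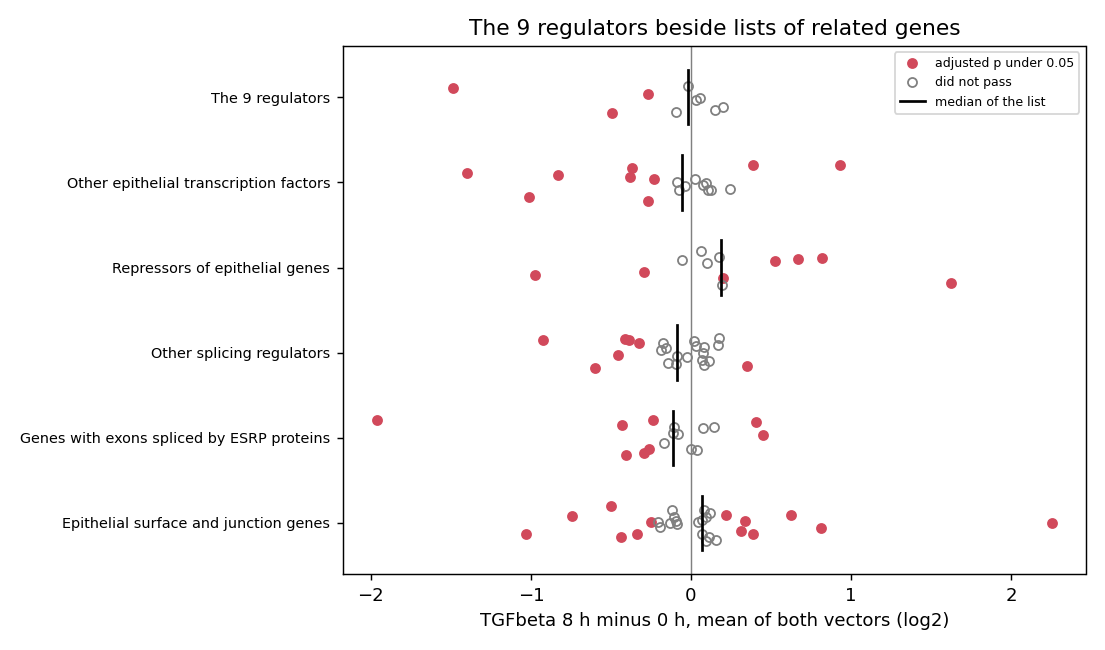
Change with TGFbeta averaged over both vectors (log2) for each measured gene of the regulators and of 5 related lists, filled where the adjusted p was under 0.05, with a bar at each list's median. Rbm47 (-1.48) is the leftmost point of the regulators, beside Foxa2 (-1.40) among other epithelial factors and Fgfr2 (-1.96) among genes with Esrp-selected exons.

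For each regulator that fell, the genes with the nearest profile over the 8 arrays were found by the root-mean-square distance of log2 values, after subtraction of each gene's mean within a replicate number. Nearest to Rbm47 were Atp7b, a copper-transporting ATPase (0.058), Ppl, which encodes the plakin periplakin (0.08), and Ptprr, a receptor-type tyrosine phosphatase (0.0826). Predicted or uncharacterised loci were left out, and the median distance of the remaining genes to Rbm47 was 0.77. These 3 genes had average changes of -1.52, -1.47 and -1.47. Ppl had 9.93 and 9.74 in Major cells with TGFbeta, against 11.41 and 11.32 without, and 9.83 and 9.95 in Control cells with TGFbeta, against 11.31 and 11.30 without. Treated and untreated arrays of Ppl did not overlap, which follows from its choice as a gene near to Rbm47, as does the size of the 3 average changes.

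Nearest to Ehf were Tmem69 (0.0512), the adhesion molecule gene Ceacam1 (0.0545) and Palb2, a partner of Brca2 in DNA repair (0.0552), against a median of 0.31 without predicted or uncharacterised loci. Nearest to Esrp2 were Ermard (0.0254), the mitotic spindle gene Ckap2l (0.0263) and Ccdc125 (0.03), against a median of 0.19. A near profile over 8 arrays is a description of these values.

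**Figure D5:**
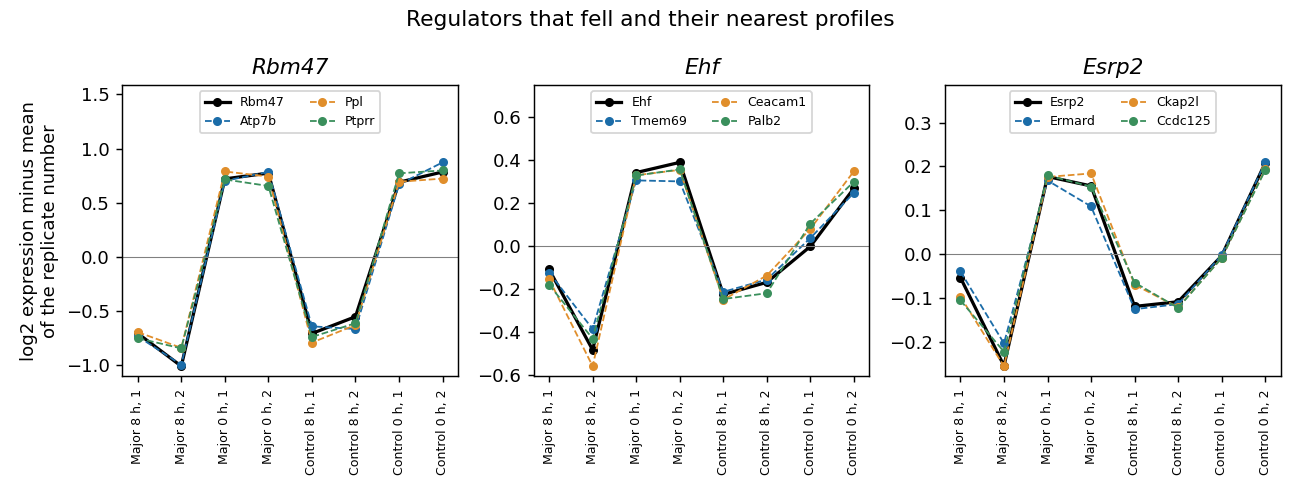
Log2 expression minus the mean of the replicate number on the 8 arrays (group and replicate number on the x axis) for Rbm47, Ehf and Esrp2 in black and their 3 nearest genes in colour. In the Rbm47 panel all 4 genes lie below 0 on the treated arrays and above 0 on the untreated ones.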

How the data were processed

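The authors deposited 1 table of log2 expression values for 34760 probesets on 8 arrays, and RMA and limma are named per the submitters' processing notes, with versions, roles and genome build not given in the sources used here. Probesets were named from the platform's table, with symbols updated through RefSeq (GRCm38.p6) for 19855 of 19937 genes, and each gene was read from its probeset with the highest mean (954 genes had several). No scanner files or detection calls were used here.

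All 8 arrays entered 1 model in limma 3.58.1 (R 4.3.3), with group means and the replicate number as a block (3 residual degrees of freedom). Tests were two-sided and adjusted by Benjamini-Hochberg over all genes. The block was used because same-numbered arrays share a title code. Deviations of same-numbered arrays from their group means correlated across genes at 0.758 to 0.874. Nothing in the labels says that replicates were separate cultures. A p-value covers only the spread between arrays that is left after the block, and this may be technical. For the average TGFbeta change of Elf3 the SE was 0.08 with the block and 0.44 without it.

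The regulators, lists and the rule for named genes were chosen with earlier results of these data known. Named list genes were up to 4 with the smallest p among those that passed in the average comparisons, plus Snai1, Zeb1 and Cdh1. The nearest genes were 3 for each regulator that passed, without predicted loci. Promoter windows are RefSeq's, and the table used here holds them for 4 of the 9 regulators.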

Additional observations from a re-analysis of the deposited data

How the results depend on the processing

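Without the replicate number, the count of regulators that passed was 1 in the average TGFbeta comparison and 1 in Major cells, against 3 and 2 with it, and over all genes 962 passed in the average, 218 in Major cells and 214 in Control cells, against 4841, 3044 and 2901. For the average difference between vectors these counts over all genes were 2 and 17. With 1 array left out, the count of regulators was 1 to 3 in Control cells and 1 to 3 in Major cells, and over all genes 1202 to 3161 and 1228 to 3020 passed, lowest when number 2 of treated Control cells or of untreated Major cells was left out. Between treated vectors 1 to 107 genes passed, between untreated ones 2 to 9 and in the average vector difference 8 to 49. The random block, array median centring, the mean of a gene's probesets, single probesets, trended robust variances and the filter at the 25th percentile, which removed Esrp1 and Grhl2, changed no regulator's call. Median centring turned the average vector difference of Ovol1 to 0.0151. For values that had not passed, leaving out 1 array turned the sign within these ranges: average TGFbeta change of Esrp1 -0.101 to 0.0701, Grhl2 -0.0353 to 0.104 and Ovol1 -0.0087 to 0.117, change of Ovol2 in Control cells -0.0875 to 0.146 and of Elf3 in Major cells -0.11 to 0.31, and difference of Ehf between treated vectors -0.348 to 0.151 and of Ovol2 between untreated ones -0.139 to 0.0948. Average vector differences ranged from -0.0748 to 0.0963 for Esrp1, -0.0588 to 0.0826 for Esrp2, -0.000174 to 0.158 for Grhl1, -0.0107 to 0.129 for Grhl2, -0.0634 to 0.062 for Ovol1, -0.0856 to 0.125 for Elf3 and -0.058 to 0.191 for Ehf. With 2 arrays a group, the number of arrays limits the precision.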
